A study of Mus musculus with 12 samples.

Results

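The VEGF family genes described here are the ligand genes Vegfa, Vegfb and Pgf, the receptor gene Flt1 (VEGF receptor 1) and the neuropilin co-receptor genes Nrp1 and Nrp2. They were found by gene symbol in a table of 27487 genes, where 6 of the 7 symbols sought were used. Vegfc was not analysed here. All 6 passed the filter on low counts that left 16387 genes for testing.

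The libraries come from BV2, a line of mouse microglia immortalised with a retrovirus that carries oncogenes. The Neu group holds 4 libraries of BV2 cells kept together with primary mouse neutrophils. The Neu+NETS group holds 4 libraries of BV2 cells kept with primary mouse neutrophils that had been stimulated with the phorbol ester PMA, an agent that makes neutrophils cast out their DNA as extracellular traps (NETs). The CTR group holds 4 libraries of BV2 cells kept alone. The labels name retina as the tissue of these cultured cells. The sources used here do not say for how long the cells were kept together, or whether neutrophils and PMA were taken away before the RNA was prepared. PMA, the traps and the stimulated neutrophils therefore cannot be told apart as sources of a difference.

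VEGF-A is the main growth signal for blood vessels and acts on endothelial cells mostly through the kinase receptor VEGFR2, the product of Kdr. VEGF-B and placental growth factor bind VEGFR1, the product of Flt1, and not VEGFR2. VEGFR1 binds VEGF-A tightly but signals weakly, its soluble form acts as a decoy, and on macrophages and microglia it takes part in migration. The neuropilins have no kinase of their own: they hold VEGF for the kinase receptors and also bind class 3 semaphorins. In the retina, VEGF-A released in low oxygen drives the growth of abnormal vessels, and microglia are among the cells that can make it.

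The promoter stretches of 3 of the genes are printed because Vegfa and Flt1 changed most among the well covered members and Nrp2 changed in the opposite direction to both when Neu was set against CTR. Each stretch is the 250 bases before the transcription start that lies furthest upstream in the RefSeq table, written 5′ to 3′ along the gene's own strand. Coordinates are on GRCm38.p6, not on the GRCm39 build of the expression table. The Vegfa stretch is chr17:46032378-46032627 (minus strand), the Flt1 stretch is chr5:147726012-147726261 (minus strand) and the Nrp2 stretch is chr1:62703067-62703316 (plus strand). Capitals mark the cores of hypoxia response elements (ACGTG or GCGTG, which read CACGT or CACGC on the other strand) and GC boxes (GGGCGG, or CCGCCC on the other strand).
Vegfa: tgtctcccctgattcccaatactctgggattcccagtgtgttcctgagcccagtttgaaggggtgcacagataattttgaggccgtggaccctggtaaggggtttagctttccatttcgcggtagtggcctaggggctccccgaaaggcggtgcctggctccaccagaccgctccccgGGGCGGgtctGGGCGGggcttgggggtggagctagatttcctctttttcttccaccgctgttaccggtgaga
Flt1: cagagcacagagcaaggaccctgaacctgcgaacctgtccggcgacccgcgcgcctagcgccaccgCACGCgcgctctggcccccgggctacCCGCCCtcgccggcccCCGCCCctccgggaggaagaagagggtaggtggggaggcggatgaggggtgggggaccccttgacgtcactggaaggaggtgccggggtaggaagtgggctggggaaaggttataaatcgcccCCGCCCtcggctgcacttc
Nrp2: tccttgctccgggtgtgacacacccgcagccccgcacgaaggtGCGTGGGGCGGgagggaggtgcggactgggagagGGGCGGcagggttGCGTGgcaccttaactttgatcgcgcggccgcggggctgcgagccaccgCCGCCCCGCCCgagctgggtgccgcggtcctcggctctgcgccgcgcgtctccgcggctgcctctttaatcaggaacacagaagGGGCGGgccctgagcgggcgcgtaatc
The Vegfa stretch holds 2 GC boxes and no hypoxia core. The Flt1 stretch holds 3 GC boxes and 1 hypoxia core, which begins 184 bases before the start. The Nrp2 stretch holds 5 GC boxes, 2 of which overlap, and 2 hypoxia cores, 207 and 160 bases before the start. The first of these cores runs straight on into a GC box. Of all 32851 RefSeq windows of this length, 38.6% hold either hypoxia core on either strand and 32.7% hold a GC box. In mouse Vegfa, as in mouse Flt1, the element known to respond to hypoxia lies further upstream than the window printed here. An AP-1 site, TGANTCA on either strand, was found in none of the 6 members' windows, against 6.75% of all windows.

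Gene rows of the table merge transcripts, so splice forms were not separated. By transcript identifier, the Vegfa row merges 9 transcripts, of which 4 code for proteins of 146 to 392 residues in GENCODE M21. The Flt1 row merges 6 transcripts, 2 of them coding, for products of 688 and 1333 residues. The Flt1 values below are therefore a sum over truncated and full-length forms. Genes that overlap the members' spans are few and low: Gm37121, on the strand of Nrp2, averaged at most 0.906 FPKM in any group.

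Levels are given as FPKM (fragments scaled to transcript length and to library size, as the authors deposited them), so that genes can be compared per length. Differences are log2 fold changes with their SE from edgeR's quasi-likelihood test on the deposited estimated counts, fitted to all 12 libraries. A gene is called when its Benjamini-Hochberg adjusted p over all genes tested is under 0.05. The libraries held 53512190 to 68316549 estimated counts each. About 4 of these units appear to stand for 1 fragment, so 3 fragments, the limit that a count of 0 allows, correspond to 12 units. This covers counting error only. The labels do not say whether the 4 libraries of a group are separate cultures, and the spread behind the p-values may be technical only.

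Calls were common in all 3 comparisons. In Neu against CTR, 26.1% of genes tested were called higher and 27.9% lower, 54.1% in all. Of genes tested in Neu+NETS against CTR, 21.6% were called higher and 23.7% lower, 45.3% in all. Between Neu+NETS and Neu, 29.4% were called higher and 33.1% lower, 62.5% in all. A call by itself therefore says little about a gene, and the size of each difference is given throughout. With limma on log2(FPKM + 1), higher calls made up 57.9% of calls in Neu+NETS against CTR, where edgeR gave 47.6%, and 58.4% in Neu+NETS against Neu, where edgeR gave 47.1%. The share moved the other way in Neu against CTR, to 40.2% with limma, where edgeR gave 48.3%.

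Cell type markers moved with the groups. The summed FPKM of 18 microglia and macrophage markers was 1956 to 2056 in Neu, 827 to 854 in Neu+NETS and 1934 to 2003 in CTR. All 18 were called lower in Neu+NETS against CTR. In Neu against CTR, 5 were called higher, 6 lower and 7 were not called, so the similar sums covered changes in both directions. Lyz2 and Cd68 gave most of the sum in these groups, at 837 and 378 FPKM in Neu and 796 and 419 FPKM in CTR. The summed FPKM of 11 mature neutrophil markers was 31.0 to 31.8 in Neu, 3.95 to 4.52 in Neu+NETS and 17.4 to 18.7 in CTR. Most of that sum came from Trem1, Csf3r and, in Neu, Il1r2, while S100a8, among the most abundant neutrophil transcripts, averaged 0.189 FPKM in Neu, 0.0547 in Neu+NETS and 0.257 in CTR. S100a8 had too few counts to be tested. Of the 10 mature neutrophil markers tested, 4 were called higher, 0 lower and 6 were not called in Neu against CTR. In Neu+NETS against CTR, 0 were called higher, 8 lower and 2 were not called. The summed FPKM of 6 neutrophil precursor markers was low in every group: 0.391 to 0.681 in Neu, 0 to 0.0929 in Neu+NETS and 0.0439 to 0.354 in CTR. Of these, Mpo, Elane, Ngp and Camp were at 0 in all Neu+NETS libraries, and Ngp also in all CTR libraries. Only Prtn3 had enough counts to be tested, and it was called higher in Neu against CTR (log2 fold change 2.65 ± 0.92 SE, edgeR adjusted p = 0.0227). The summed FPKM of 15 endothelial markers was 11.6 to 12.4 in Neu, 12.6 to 14.0 in Neu+NETS and 14.4 to 16.4 in CTR, mostly Tal1 and Egfl7 and, in Neu, Vwf. Among defining endothelial markers, Cdh5 averaged at most 0.00778 FPKM and Pecam1 at most 0.0639 FPKM in any group. Vwf, the von Willebrand factor gene, was not near 0: it averaged 3.08 FPKM in Neu, 0.395 in Neu+NETS and 1.35 in CTR. It was called higher in Neu against CTR (log2 fold change 1.24 ± 0.09 SE, edgeR adjusted p = 3.45e-09) and lower in Neu+NETS against CTR (-1.82 ± 0.10 SE, edgeR adjusted p = 1.25e-10), the directions that Flt1 took. The list did not move as 1: of 8 endothelial markers tested, 4 were called higher and 2 lower in Neu against CTR. The 2 lower were Tal1 (-1.28 ± 0.07 SE, edgeR adjusted p = 6.09e-11) and Egfl7 (-0.21 ± 0.07 SE, edgeR adjusted p = 0.0132). In Neu+NETS against CTR, 0 were called higher, 3 lower and 5 were not called. The summed FPKM of 10 retinal neuron and glia markers was 23.2 to 24.9 in Neu, 25.4 to 28.0 in Neu+NETS and 26.9 to 28.6 in CTR, most of it Glul, at 19.7 FPKM in Neu, 22.7 in Neu+NETS and 24.0 in CTR. The part of these shifts in the VEGF family differences was not tested, and in bulk RNA fewer cells of a type and less RNA per cell cannot be told apart.

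In BV2 cells kept with neutrophils, Vegfa transcripts were about 4 times as abundant as in BV2 cells alone and Flt1 about 2 times, while Vegfb, Nrp1 and Nrp2 were lower. With PMA-stimulated neutrophils, Vegfa was only slightly higher than in BV2 cells alone, and Flt1, Nrp1, Nrp2 and Vegfb were all lower. Against CTR, the direction thus differed between Vegfa and Vegfb in both co-cultures and between the receptors in Neu only. For Flt1 it also differed between both co-cultures. Of the 6 members, 3 were called higher and 3 lower in Neu against CTR. With Neu+NETS against CTR, 1 was called higher, 4 lower and 1 was not called. Set against Neu, the Neu+NETS libraries had 2 members called higher and 4 lower. The median log2 fold change of the 6 members was 0.31 in Neu against CTR, -0.53 in Neu+NETS against CTR and -1.05 in Neu+NETS against Neu, beside medians of 0.02, 0.00021 and -0.05 over all genes tested. Both comparisons with CTR share the same 4 CTR libraries.

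**Figure D1:**
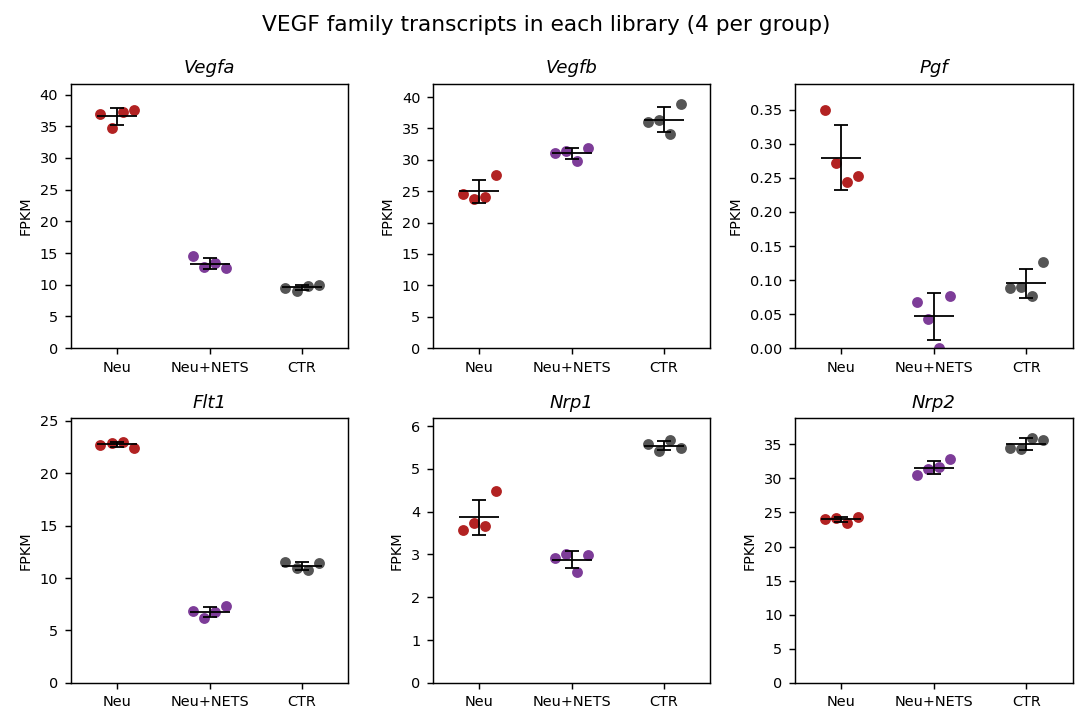
FPKM (vertical axes, each from 0) of the 6 VEGF family genes in each library of Neu, Neu+NETS and CTR. Points are libraries, and the bars are the mean ± SD of 4 libraries. Vegfa and Flt1 stand highest in Neu, Vegfb, Nrp1 and Nrp2 stand highest in CTR, and Pgf stays under 0.35 FPKM everywhere.

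Vegfa, which encodes VEGF-A, lies on GRCm39 at chr17:46327919-46343295 (minus strand, ENSMUSG00000023951). Its FPKM was 36.9, 34.7, 37.2 and 37.6 in the 4 Neu libraries, 14.5, 12.7, 13.4 and 12.7 in the 4 Neu+NETS libraries, and 9.53, 9.01, 9.79 and 9.96 in the 4 CTR libraries. All Neu libraries were far above the rest, and the lowest Neu+NETS library was above the highest CTR library. Vegfa rose 3.97-fold in Neu against CTR (log2 fold change 1.99 ± 0.05 SE, edgeR adjusted p = 3.27e-15). That increase ranked 416 among the 16387 genes tested. It rose 1.35-fold in Neu+NETS against CTR (0.43 ± 0.05 SE, edgeR adjusted p = 9.7e-07), with rank 2238. Vegfa fell by 1.56 on the log2 scale in Neu+NETS against Neu (SE 0.05, edgeR adjusted p = 1.93e-14). By level among all 27487 genes, Vegfa ranked 1244 in Neu, 3952 in Neu+NETS and 5063 in CTR.

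Vegfb encodes VEGF-B, a VEGFR1 ligand known more for effects on cell survival and lipid handling than for vessel growth, and lies at chr19:6959841-6965019 (minus strand, ENSMUSG00000024962). Its FPKM was 24.5, 23.7, 24.0 and 27.6 in Neu, 31.1, 31.4, 29.7 and 31.9 in Neu+NETS, and 36.0, 36.3, 34.1 and 39.0 in CTR. The 3 groups did not overlap, with Neu lowest, Neu+NETS between and CTR highest. Vegfb fell by 0.49 on the log2 scale in Neu against CTR (SE 0.05, edgeR adjusted p = 2.02e-07). It fell by 0.28 in Neu+NETS against CTR (SE 0.05, edgeR adjusted p = 0.000158). It rose by 0.21 in Neu+NETS against Neu (SE 0.05, edgeR adjusted p = 0.0013). Both ligands thus stood in opposite order over the groups, Vegfa highest where Vegfb was lowest.

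Pgf encodes placental growth factor, a VEGFR1 ligand linked in mice to vessel growth in disease, and lies at chr12:85213409-85224564 (minus strand, ENSMUSG00000004791). It was close to the limit of detection. Its estimated counts were 72, 58, 51 and 51 units in Neu, 15, 8, 0 and 15 units in Neu+NETS, and 17, 18, 14 and 22 units in CTR, beside a detection limit of 12 units per library. In FPKM it averaged 0.280 ± 0.048 in Neu, 0.047 ± 0.034 in Neu+NETS and 0.095 ± 0.021 in CTR (SD, n = 4 each). The Neu libraries were all above the others, while Neu+NETS and CTR nearly met at 0.0767 and 0.0768 FPKM. Pgf rose by 1.57 on the log2 scale in Neu against CTR (SE 0.59, edgeR adjusted p = 0.0324). That call was lost when any of Neu libraries 1, 2 and 3 or CTR libraries 1, 2 and 3 was left out, with edgeR adjusted p of 0.0528 to 0.0908. Pgf fell in Neu+NETS against Neu (edgeR adjusted p = 0.00141) and was not called in Neu+NETS against CTR (edgeR adjusted p = 0.195); no fold is given for these counts.

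Flt1, the gene of VEGFR1, lies at chr5:147498414-147662821 (minus strand, ENSMUSG00000029648). Its FPKM was 22.7, 22.9, 23.0 and 22.5 in Neu, 6.82, 6.19, 6.71 and 7.37 in Neu+NETS, and 11.6, 10.9, 10.8 and 11.5 in CTR. The groups lay far apart, Neu highest and Neu+NETS lowest. Flt1 rose 2.11-fold in Neu against CTR (log2 fold change 1.08 ± 0.04 SE, edgeR adjusted p = 9.79e-13). Flt1 fell by 0.77 on the log2 scale in Neu+NETS against CTR (SE 0.04, edgeR adjusted p = 1.5e-10). It fell by 1.85 in Neu+NETS against Neu (SE 0.04, edgeR adjusted p = 6.78e-16), the largest fall among the 5 well covered members in that comparison. Flt1 was the only 1 of these 5 that was called in opposite directions in both co-cultures against CTR. By level among all genes it ranked 2122 in Neu, 6433 in Neu+NETS and 4502 in CTR.

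The other kinase receptors were barely detected. Kdr, the gene of VEGFR2, averaged 0.0225 FPKM in Neu, 0.0159 in Neu+NETS and 0.0119 in CTR, with 0 to 20 units per library, and was called in no comparison (edgeR adjusted p of 0.422, 0.805 and 0.595 in Neu against CTR, Neu+NETS against CTR and Neu+NETS against Neu). Flt4, the gene of VEGFR3, which serves lymphatic vessels, had 107, 202, 134 and 211 units in Neu, 4, 12, 18 and 6 units in Neu+NETS, and 37, 73, 37 and 41 units in CTR. Flt4 rose by 1.68 on the log2 scale in Neu against CTR (SE 0.34, edgeR adjusted p = 0.000434). It fell in Neu+NETS against CTR (edgeR adjusted p = 7.59e-05), where its Neu+NETS counts lay around the detection limit. Its mean of 0.282 FPKM in Neu was far under the 22.7 FPKM of Flt1 there.

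**Figure D2:**
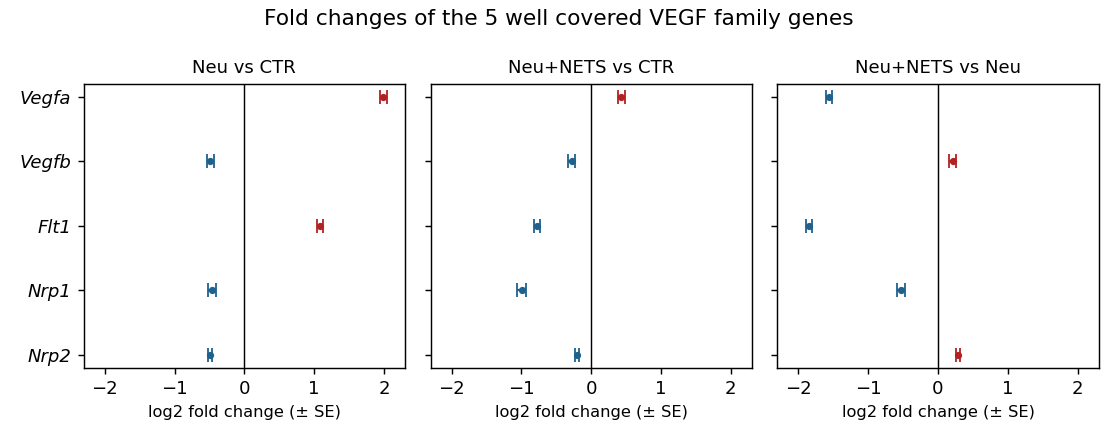
Log2 fold change (horizontal axes) of the 5 well covered VEGF family genes in the 3 comparisons. Points are the fitted values from edgeR on all 12 libraries with bars of ± SE derived from its F statistic, red for higher and blue for lower. Flt1 lies at 1.08 in Neu against CTR and at -0.77 in Neu+NETS against CTR, while Vegfa lies right of 0 in both.

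Nrp1 encodes neuropilin 1, which strengthens VEGF-A signalling through VEGFR2 and binds semaphorin 3A, and lies at chr8:129085085-129188562 (plus strand, ENSMUSG00000025810). Its FPKM was 3.56, 3.75, 3.67 and 4.48 in Neu, 2.92, 3.00, 2.59 and 2.99 in Neu+NETS, and 5.58, 5.42, 5.68 and 5.49 in CTR. All libraries of both co-cultures were below every CTR library. Nrp1 fell by 0.46 on the log2 scale in Neu against CTR (SE 0.06, edgeR adjusted p = 6.21e-06). It fell by 1.00 in Neu+NETS against CTR (SE 0.06, edgeR adjusted p = 1.18e-09). Between Neu+NETS and Neu, Nrp1 was lower by 0.53 in Neu+NETS (log2 fold change -0.53, SE 0.06, edgeR adjusted p = 1.09e-06).

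Nrp2 encodes neuropilin 2, a co-receptor for VEGF-C and for semaphorin 3F, and lies at chr1:62742444-62857854 (plus strand, ENSMUSG00000025969). Its FPKM was 24.0, 24.2, 23.5 and 24.3 in Neu, 30.5, 31.4, 31.6 and 32.8 in Neu+NETS, and 34.4, 34.3, 36.0 and 35.6 in CTR. It was the receptor gene with the highest level in each group, and its order over the groups was that of Vegfb. Nrp2 fell by 0.49 on the log2 scale in Neu against CTR (SE 0.03, edgeR adjusted p = 3.7e-11). It fell by 0.20 in Neu+NETS against CTR (SE 0.02, edgeR adjusted p = 4.26e-06). Nrp2 rose by 0.29 in Neu+NETS against Neu (SE 0.02, edgeR adjusted p = 2e-08), while Nrp1 fell.

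The order of the members by level changed with the group. In Neu, Vegfa came first at 36.6 ± 1.3 FPKM, followed by Vegfb at 25.0 ± 1.8, Nrp2 at 24.0 ± 0.34 and Flt1 at 22.7 ± 0.22 (SD, n = 4 each). In Neu+NETS, Nrp2 at 31.6 ± 0.96 and Vegfb at 31.0 ± 0.92 came first, with Vegfa at 13.3 ± 0.84 and Flt1 at 6.77 ± 0.49 FPKM. In CTR, Vegfb at 36.4 ± 2.0 and Nrp2 at 35.1 ± 0.86 came first, with Flt1 at 11.2 ± 0.38 and then Vegfa at 9.57 ± 0.42 FPKM. The ranges of Vegfb and Nrp2 overlapped in every group, so their order did not differ beyond the spread. Nrp1 and then Pgf came last throughout.

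Within a library, the balance between ligands and receptors shifted as well, and these ratios of FPKM are given as descriptions. Vegfa over Vegfb was 1.47 ± 0.08 in Neu, 0.430 ± 0.034 in Neu+NETS and 0.264 ± 0.017 in CTR (SD, n = 4 each). Vegfa made up 59.2% ± 1.3 of the summed FPKM of Vegfa, Vegfb and Pgf in Neu, 30.0% ± 1.6 in Neu+NETS and 20.8% ± 1.1 in CTR. The summed level of the 3 ligands was 61.8 ± 2.8 FPKM in Neu, 44.4 ± 1.1 in Neu+NETS and 46.0 ± 2.1 in CTR. Neu+NETS and CTR therefore had sums whose ranges overlapped. Vegfb made up most of both, and the share of Vegfa was larger in Neu+NETS.

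Vegfa over Flt1, the ligand over the 1 kinase receptor gene that was well expressed, was 1.61 ± 0.07 in Neu, 1.98 ± 0.18 in Neu+NETS and 0.856 ± 0.040 in CTR. The ratio was above 1 in every co-culture library and under 1 in every CTR library. In Neu both genes were higher, while in Neu+NETS Vegfa was a little higher and Flt1 was lower. Flt1 made up 44.9% ± 0.81 of the summed FPKM of Flt1, Nrp1 and Nrp2 in Neu, 16.4% ± 0.83 in Neu+NETS and 21.6% ± 0.78 in CTR. Nrp2 over Nrp1 was 6.26 ± 0.58 in Neu, 11.0 ± 0.83 in Neu+NETS and 6.33 ± 0.13 in CTR. The neuropilin ratio thus overlapped between Neu and CTR and stood apart in Neu+NETS.

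**Figure D3:**
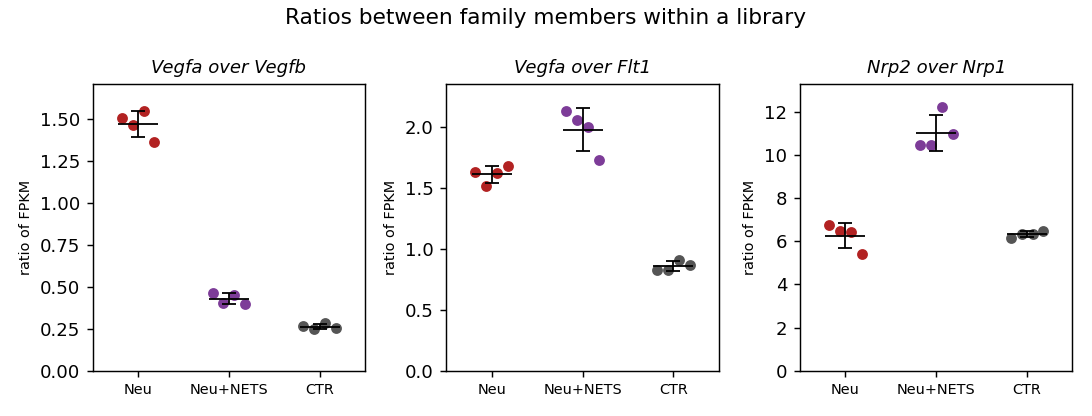
Ratios of FPKM (vertical axes, each from 0) between members within each library, for Vegfa over Vegfb, Vegfa over Flt1 and Nrp2 over Nrp1. Points are libraries, and the bars are the mean ± SD of 4 libraries. Vegfa over Flt1 is 1.52 to 1.68 in Neu, 1.72 to 2.13 in Neu+NETS and 0.823 to 0.908 in CTR.

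The genes whose log2 CPM (counts scaled to library size) most closely followed each member over the 12 libraries were listed by Pearson's r among genes with at least 5 FPKM in a group. These correlations are descriptions, as the points share groups and libraries. Vegfa was followed most closely by Bnip3, a mitochondrial protein gene known as a hypoxia target (r = 0.998), then by Nedd9 and Cdkn1a, the gene of the cell cycle inhibitor p21 (both r = 0.997). Bnip3 averaged 313 FPKM in Neu, 69.8 in Neu+NETS and 46.3 in CTR. Flt1 was followed by Bhlhe40, a transcriptional repressor gene, at 45.6 FPKM in Neu, 12.7 in Neu+NETS and 21.4 in CTR (r = 0.998), and by Fam107b and Mcl1, a survival gene of the BCL2 family (both r = 0.997). Nrp1 was followed by Cebpb, a myeloid transcription factor gene (r = 0.993), Tkt and Rnpep. Nrp2 was followed by Nde1 (r = 0.995), Nceh1 and Polr1a. Vegfb was followed by Atp6v0c, a subunit gene of the vacuolar proton pump (r = 0.984), Dhx35 and Mrpl4. For Pgf the closest was Plpp2 (r = 0.958), followed by Runx3 and Lnx2, with few counts behind the Pgf values. Pearson's r does not measure the size of a change. Plpp2 averaged 12.5 FPKM in Neu, 11.3 in Neu+NETS and 12.0 in CTR, and was not called in Neu against CTR (edgeR adjusted p = 0.161).

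Genes that control Vegfa transcription and the decay of its transcript moved in both directions. Of 22 tested, 8 were called higher and 8 lower in Neu against CTR (median log2 fold change -0.0023, against 0.02 over all genes). Hif1a, the oxygen-regulated subunit gene of HIF-1, averaged 31.3 FPKM in Neu, 38.6 in Neu+NETS and 31.6 in CTR. It was not called in Neu against CTR (0.04 ± 0.04 SE, edgeR adjusted p = 0.362) and rose by 0.24 in Neu+NETS against CTR (SE 0.04, edgeR adjusted p = 2.97e-05). HIF subunits are controlled mostly as proteins, which these data do not measure. Epas1, the gene of HIF-2 alpha, averaged 2.78 FPKM in Neu, 1.53 in Neu+NETS and 3.04 in CTR, and fell by 1.04 on the log2 scale in Neu+NETS against CTR (SE 0.08, edgeR adjusted p = 2.06e-08).

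Oxygen sensor genes, whose products mark HIF for destruction or silence it, moved in both directions. Egln1, a HIF prolyl hydroxylase gene, had 85.4, 85.2, 87.5 and 89.9 FPKM in Neu, 28.4, 26.4, 26.9 and 24.7 in Neu+NETS, and 21.9, 21.1, 21.4 and 21.2 in CTR. Its order over the groups was that of Vegfa. It rose by 2.08 on the log2 scale in Neu against CTR (SE 0.04, edgeR adjusted p = 2.09e-16). Egln3, a sister hydroxylase gene, rose by 1.75 in Neu against CTR (SE 0.07, edgeR adjusted p = 3.52e-12) and by 1.02 in Neu+NETS against CTR (SE 0.07, edgeR adjusted p = 6.18e-09). Vhl, which encodes the ubiquitin ligase subunit that recognises hydroxylated HIF, averaged 13.9 FPKM in Neu, 8.33 in Neu+NETS and 5.91 in CTR. It rose by 1.29 in Neu against CTR (SE 0.06, edgeR adjusted p = 2.53e-11) and by 0.45 in Neu+NETS against CTR (SE 0.06, edgeR adjusted p = 2e-05). Egln2, the gene of another prolyl hydroxylase of the same family, averaged 9.45 FPKM in Neu, 10.4 in Neu+NETS and 13.7 in CTR, and fell by 0.48 in Neu against CTR (SE 0.06, edgeR adjusted p = 1.95e-06). Hif1an, the gene of the asparaginyl hydroxylase that blocks HIF activity, averaged 7.03 FPKM in Neu, 10.8 in Neu+NETS and 8.97 in CTR. It fell by 0.29 in Neu against CTR (SE 0.04, edgeR adjusted p = 1.15e-05).

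Of the 22 regulators, 9 were called higher and 8 lower in Neu+NETS against CTR (median 0.02). There were 7 called higher and 11 lower in Neu+NETS against Neu (median -0.24). Zfp36, whose protein tristetraprolin promotes decay of AU-rich transcripts that include Vegfa, averaged 13.5 FPKM in Neu, 6.16 in Neu+NETS and 5.47 in CTR. It rose by 1.36 in Neu against CTR (SE 0.08, edgeR adjusted p = 1.53e-10) and was not called in Neu+NETS against CTR (0.12 ± 0.08 SE, edgeR adjusted p = 0.226). Its relative Zfp36l1 fell by 0.88 in Neu+NETS against CTR (SE 0.07, edgeR adjusted p = 9.82e-09). Atf4, a stress-response transcription factor gene that can act on Vegfa, had 49.1 to 55.5 FPKM in Neu, 127 to 133 in Neu+NETS and 78.0 to 81.8 in CTR. Atf4 was thus highest in Neu+NETS and lowest in Neu, and its part in the Vegfa differences was not tested.

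Hypoxia response genes, the set to which Vegfa belongs by its regulation, were the VEGF-related list with the largest share of calls in 1 direction in Neu against CTR and in Neu+NETS against Neu. Of 38 tested, which do not include Vegfa, 33 were called higher and 3 lower in Neu against CTR (median 1.27). The 3 lower genes, named after their values were seen, were Tfrc, Car12 and Mif. Set against CTR, Neu+NETS had 22 called higher and 10 lower (median 0.20). Set against Neu, it had 2 called higher, Tfrc and Car12, and 34 lower (median -1.16). Ero1a, an oxidase gene of the endoplasmic reticulum, averaged 261 FPKM in Neu, 32.3 in Neu+NETS and 19.6 in CTR, a log2 fold change of 3.79 ± 0.04 in Neu against CTR (SE, edgeR adjusted p = 3.84e-19). Ndrg1 averaged 143 FPKM in Neu, 15.9 in Neu+NETS and 13.1 in CTR. Ddit4, which restrains mTOR signalling, had 61.9 to 68.9 FPKM in Neu, 8.90 to 10.4 in Neu+NETS and 9.26 to 10.1 in CTR. The median rise of the list in Neu was smaller than the 1.99 of Vegfa and close to the 1.08 of Flt1.

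**Figure D4:**
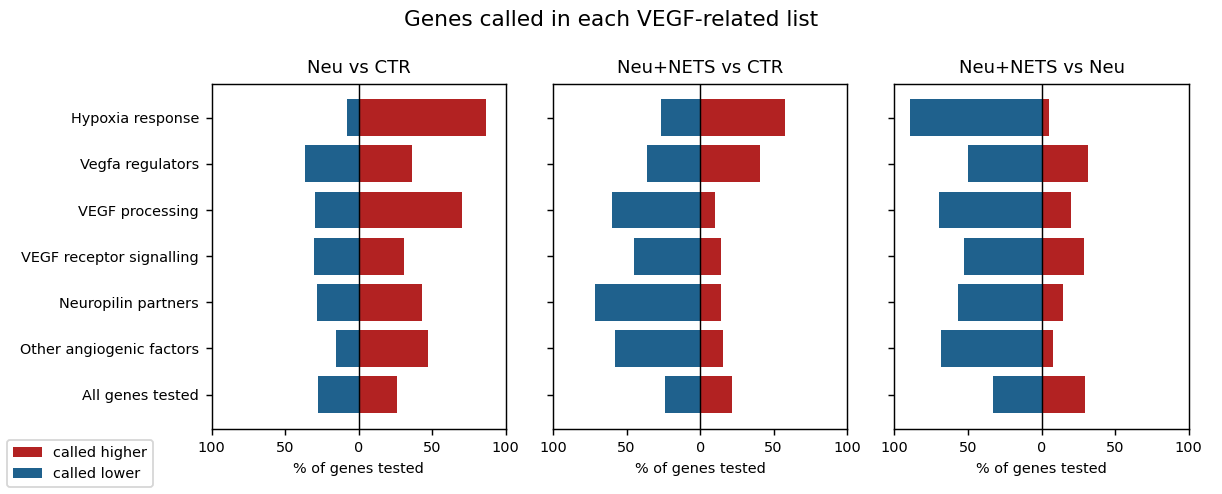
Percentage of tested genes called higher (red, right of 0) and lower (blue, left of 0) in 6 VEGF-related gene lists and among all genes tested, in the 3 comparisons. Hypoxia response genes were mostly higher in Neu against CTR, 33 of 38, and mostly lower in Neu+NETS against Neu, 34 of 38, whereas all genes tested were called about equally in both directions.

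Genes of proteins that take part in the release or processing of VEGF proteins, mostly proteases, had different counts of calls in the 3 comparisons. Of 15 with a row, 10 were tested, and the heparanase gene Hpse was among those left out for low counts. Of the 10, 7 were called higher and 3 lower in Neu against CTR (median 0.58). There were 1 higher and 6 lower in Neu+NETS against CTR (median -0.33), and 2 higher and 7 lower in Neu+NETS against Neu (median -0.88). Furin, which encodes a proprotein convertase that cuts the VEGF-C precursor, had 39.6, 40.0, 39.8 and 45.1 FPKM in Neu, 11.1, 10.2, 10.7 and 10.6 in Neu+NETS, and 10.9, 9.72, 10.5 and 10.5 in CTR. It rose by 2.04 in Neu against CTR (SE 0.04, edgeR adjusted p = 7.31e-16), and its Neu+NETS and CTR libraries overlapped. Mmp9, a gelatinase gene whose product frees VEGF from matrix, averaged 1.46 FPKM in Neu, 0.215 in Neu+NETS and 0.548 in CTR. Mmp9 is also on the list of mature neutrophil markers. Their summed level, which includes Mmp9 itself, was likewise highest in Neu and lowest in Neu+NETS. The part of neutrophil RNA in the Mmp9 values was not tested. Adamts1, whose product binds VEGF-A, rose by 0.97 in Neu against CTR (SE 0.05, edgeR adjusted p = 1.29e-10) and fell by 0.34 in Neu+NETS against CTR (SE 0.06, edgeR adjusted p = 8.26e-05). Plau, the urokinase gene, rose in both co-cultures, by 0.87 in Neu against CTR (SE 0.03, edgeR adjusted p = 5.76e-14) and by 0.95 in Neu+NETS against CTR (SE 0.03, edgeR adjusted p = 2.86e-14).

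Among partners of the neuropilins (plexins, semaphorins and adaptors), 3 of 7 tested were called higher and 2 lower in Neu against CTR (median 0.21). There was 1 called higher and 5 lower in Neu+NETS against CTR (median -0.35), and 1 higher and 4 lower in Neu+NETS against Neu (median -0.47). L1cam, an adhesion molecule gene whose product binds neuropilin 1, averaged 4.75 FPKM in Neu, 0.792 in Neu+NETS and 3.01 in CTR. It rose by 0.71 in Neu against CTR (SE 0.07, edgeR adjusted p = 1.31e-07) and fell by 1.97 in Neu+NETS against CTR (SE 0.07, edgeR adjusted p = 1.63e-12). The plexin gene Plxna1 rose by 0.21 in Neu against CTR (SE 0.04, edgeR adjusted p = 9.07e-05) and fell by 0.35 in Neu+NETS against CTR (SE 0.04, edgeR adjusted p = 5.36e-07). Plxna2 fell by 0.66 in Neu (SE 0.06, edgeR adjusted p = 7.39e-08) and by 0.72 in Neu+NETS (SE 0.06, edgeR adjusted p = 4.72e-08), each against CTR.

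Signal transducers of VEGF receptors were tested in larger number, and their median moved little. Of 49 tested, 15 were called higher and 15 lower in Neu against CTR (median -0.02), a share in each direction near that of all genes. In Neu+NETS against CTR, 7 were called higher and 22 lower (median -0.10), beside 21.6% and 23.7% of all genes. In Neu+NETS against Neu, 14 were called higher and 26 lower (median -0.18), beside 29.4% and 33.1%. The share called lower was thus larger than that of all genes in both of these comparisons. Pik3cb, a PI 3-kinase subunit gene, averaged 19.8 FPKM in Neu, 8.16 in Neu+NETS and 10.5 in CTR. It rose by 0.97 in Neu against CTR (SE 0.03, edgeR adjusted p = 1.58e-13). Ptpn6, the gene of the phosphatase SHP-1, which is high in myeloid cells, averaged 149 FPKM in Neu, 54.5 in Neu+NETS and 115 in CTR, and fell by 1.12 in Neu+NETS against CTR (SE 0.03, edgeR adjusted p = 5.37e-15). Mapk3, the gene of ERK1, rose by 0.70 in Neu (SE 0.04, edgeR adjusted p = 4.19e-11) and fell by 0.74 in Neu+NETS (SE 0.04, edgeR adjusted p = 4.91e-11), each against CTR.

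In the related PDGF branch, 1 of 2 genes tested was called. Pdgfb, a growth factor gene whose product draws pericytes to vessels, averaged 20.9 FPKM in Neu, 11.3 in Neu+NETS and 11.6 in CTR. It rose by 0.90 in Neu against CTR (SE 0.04, edgeR adjusted p = 1.12e-11) and was not called in Neu+NETS against CTR (-0.08 ± 0.04 SE, edgeR adjusted p = 0.123).

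Other angiogenic and angiostatic factors were called higher more often than lower in Neu against CTR, 18 and 6 of 38 tested (median 0.44). The reverse held in Neu+NETS against CTR, with 6 higher and 22 lower (median -0.44), and in Neu+NETS against Neu, with 3 higher and 26 lower (median -0.85). Lif, a cytokine gene that restrains vessel growth in the mouse retina, averaged 2.79 FPKM in Neu, 1.53 in Neu+NETS and 0.582 in CTR, and rose by 2.31 in Neu against CTR (SE 0.18, edgeR adjusted p = 1.09e-08). Plaur, the urokinase receptor gene, rose by 1.11 in Neu (SE 0.03, edgeR adjusted p = 6.66e-14) and by 0.74 in Neu+NETS (SE 0.03, edgeR adjusted p = 1.49e-11), each against CTR. Hbegf, the gene of a heparin-binding growth factor of the EGF family, was highest in Neu+NETS, at 4.65 FPKM, against 1.68 in Neu and 1.32 in CTR. It rose by 1.76 in Neu+NETS against CTR (SE 0.09, edgeR adjusted p = 1.17e-10). Igf1, a growth factor gene that microglia express, fell to 0.536 FPKM in Neu+NETS, against 4.86 FPKM in CTR (log2 fold change -3.22 ± 0.06 SE, edgeR adjusted p = 2.98e-16). S1pr1, a sphingosine 1-phosphate receptor gene, averaged 9.70 FPKM in Neu, 1.16 in Neu+NETS and 7.85 in CTR.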

How the data were processed

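Polyadenylated RNA was sequenced from 12 BV2 libraries, 4 each of Neu, Neu+NETS and CTR, grouped by the labels. HISAT2 2.0.4, StringTie 1.3.4d, edgeR and the build GRCm39 are listed in the submitters' processing notes. The sources used here do not give annotation or strand setting. Estimated counts, as deposited, are whole numbers not scaled between libraries, and 33% of those from 2 to 41 are multiples of 4, where an even spread gives 25%. Levels use the authors' deposited FPKM. Genes without enough counts (filterByExpr) were removed, which left 16387, and edgeR 4.0.16 (R 4.3.3) was run with TMM scaling, 1 quasi-likelihood fit to all libraries and Benjamini-Hochberg adjustment. Alternatives used limma 3.58.1 on FPKM and DESeq2 1.42.0. The edgeR step was tested on simulated data. Named genes are the members, 8 receptors, ligands and regulators, up to 3 called genes per list with the largest change and at least 1 FPKM, the 3 genes most alike each member, and markers that are the most abundant of their list or, chosen after their values were seen, define its cell type. Egln2, Hif1an and Hpse were also named after their values were seen. Members and lists were chosen with earlier results of these data known. Promoters came from RefSeq (GRCm38.p6). Libraries within a group differed beyond sampling noise (chi-square per degree of freedom 1.95 to 4.78 on counts divided by 4). Vegfc and Vegfd were not analysed here, and 1 gene that the naming rule picks is not reported here.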

Additional observations from a re-analysis of the deposited data

How the results depend on the processing

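Results were recomputed under 23 other settings: other scaling factors, filters and tools, counts divided by 4, only the 2 groups compared, a replicate block, and each library left out in turn. Pgf was left untested in 3 of them, both limma fits and the filter of 1 FPKM, where its level was too low. No fold change of a member reversed under any setting that tested it. Members called higher in Neu against CTR numbered 2 to 3 and members called lower in Neu+NETS against Neu numbered 3 to 4, and both ranges turn on Pgf: the count of 3 in Neu+NETS against Neu comes from the 3 settings that left Pgf untested. For the 5 other members every call kept its side of the threshold. The Pgf call in Neu against CTR was lost without the filter on low counts (edgeR adjusted p = 0.068) and when 1 of 6 libraries was left out (0.0528 to 0.0908). Hif1a in Neu against CTR passed the threshold with upper-quartile factors (edgeR adjusted p = 0.0447) and with a filter of 1 FPKM (0.0406). With the replicate block, Pgf in Neu against CTR had a log2 fold change of 1.61 (edgeR adjusted p = 0.0407), Vegfa kept 1.99, and no count of members called moved. Same-numbered libraries of different groups did not deviate together (correlations of -0.0546 to 0.0426, against -0.0468 to 0.0469 for different numbers). No pairing by number was thus seen, which does not exclude a pairing without shared deviations. Limma on log2(FPKM + 0.1) moved the median of all genes in Neu+NETS against Neu to 0.11, where edgeR gave -0.05, and the cause was not tested. As TPM, Vegfa averaged 128 in Neu, 45.6 in Neu+NETS and 32.4 in CTR. Depth limits Kdr in all groups, Flt4 in Neu+NETS, and Pgf in Neu+NETS and CTR, where counts lay near the limit of 12 units.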
